A study of Mus musculus with 12 samples.

Results

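The NRF2 target and antioxidant genes described here were 10 genes of the 55401 listed: Slc7a11, Gclc, Gclm, Gsr, Txnrd1, Srxn1, Txnip, Nqo1, Hmox1 and Sod3. They were chosen by name, with the measured NAD+ responses of some of them already known. Their NAD+ differences are therefore given as description, without p-values. Where a member is said to be called for NAD+, this only places it against the threshold used for all genes. The same holds where the call was kept or lost in another fit, and neither is support for a response. RNA-seq was performed on adult neural stem/progenitor cells (aNSPCs) isolated from the forebrain of C57BL/6 mice aged 8 to 10 weeks. The cells were held under proliferating conditions (20 ng/mL EGF and 20 ng/mL FGF-2) or under differentiation conditions, for which the study's assays used 1 µM retinoic acid and 5 µM forskolin. In each condition, 3 samples received no NAD+ (Ctrl) and 3 received 1 mM β-nicotinamide adenine dinucleotide (NAD+), which gave 4 groups and 12 samples. Groups follow the sample titles, 6 of which name NAD+, although a treatment field of the labels has the word untreated for every sample. The length of exposure before RNA-seq is not given in the sources used here.

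NRF2, encoded by Nfe2l2, is a transcription factor that is held back by KEAP1 through ubiquitin-dependent degradation. When cysteines of KEAP1 are modified by oxidants or electrophiles, NRF2 accumulates, pairs with a small MAF protein and binds antioxidant response elements (AREs) near genes of glutathione, thioredoxin, quinone and haem metabolism. The glutathione and thioredoxin systems draw their electrons from NADPH, a phosphorylated relative of NAD+. TXNIP binds thioredoxin and opposes it, and its gene is induced by glucose metabolites through carbohydrate response elements, while SOD3 is a superoxide dismutase secreted from cells. Txnip and Sod3 are thus antioxidant-related genes and are not classical NRF2 targets.

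All 10 genes are protein-coding in the GENCODE M21 annotation of mm10. Promoter windows from RefSeq (GRCm38.p6), with 250 bases before and 50 bases after each start, were found for 6 of them: Srxn1, Slc7a11, Txnip, Gclm, Nqo1 and Txnrd1. The bases before the start of Srxn1 and Txnip, both on the plus strand, are shown because these genes had higher FPKM with NAD+ in both conditions and because their windows held different elements. Capitals mark the matched letters.

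Srxn1, chr2:152105274-152105523: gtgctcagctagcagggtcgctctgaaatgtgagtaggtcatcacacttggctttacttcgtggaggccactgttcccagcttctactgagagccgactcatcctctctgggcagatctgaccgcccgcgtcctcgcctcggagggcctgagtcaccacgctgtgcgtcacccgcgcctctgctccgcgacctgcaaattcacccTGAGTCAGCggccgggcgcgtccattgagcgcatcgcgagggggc

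Txnip, chr3:96557707-96557956: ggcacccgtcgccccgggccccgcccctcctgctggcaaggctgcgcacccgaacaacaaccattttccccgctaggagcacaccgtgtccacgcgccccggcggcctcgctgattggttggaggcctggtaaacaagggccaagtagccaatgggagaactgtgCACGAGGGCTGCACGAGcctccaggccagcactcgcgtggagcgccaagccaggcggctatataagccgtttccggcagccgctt

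In Srxn1, the capitals are TGAGTCAGC, a form bound by NRF2 with small MAF, 45 to 37 bases before the start. This form and TGACTCAGC were searched after the windows had been seen, and 0.822% of all 32851 windows held either of them on either strand. In Txnip, the capitals hold 2 copies of CACGNG spaced 5 bases apart, the layout of a carbohydrate response element, 85 to 69 bases before the start. This layout was found in 16 windows (0.0487%). The shorter ARE core, TGACNNNGC on either strand, was found in 12.4% of the windows, among them those of Gclm (GCACCGTCA, 134 to 126 bases before the start), Srxn1 (GCTAGGTCA, after the start) and 1 of 3 Txnrd1 windows (GCTTTGTCA, 92 to 84 bases before the start). None of these motifs was present in the windows of Slc7a11 and Nqo1, which says only that these letters are not in those windows.

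Expression is given as FPKM, the number of fragments assigned to a gene divided by its length in kilobases and by the total of mapped fragments. The depth of each sample is unknown, because the FPKM values are rounded to 0.01 and the reads behind them cannot be recovered. Differences are of mean log2(FPKM + 0.1) with their standard error (SE), and a gene was called changed at an adjusted p-value below 0.05 in limma. All 10 genes passed the filter on low values, a mean FPKM of at least 0.1, in every comparison. In these bulk samples, fewer cells of a type and less RNA per cell cannot be told apart. The progenitor genes Nes and Sox2 were detected in every sample, at 9.0 FPKM or more and 128.61 FPKM or more. Nothing states that the 3 samples of a group came from separate mice, so p-values measure the spread between these samples only.

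**Figure D1:**
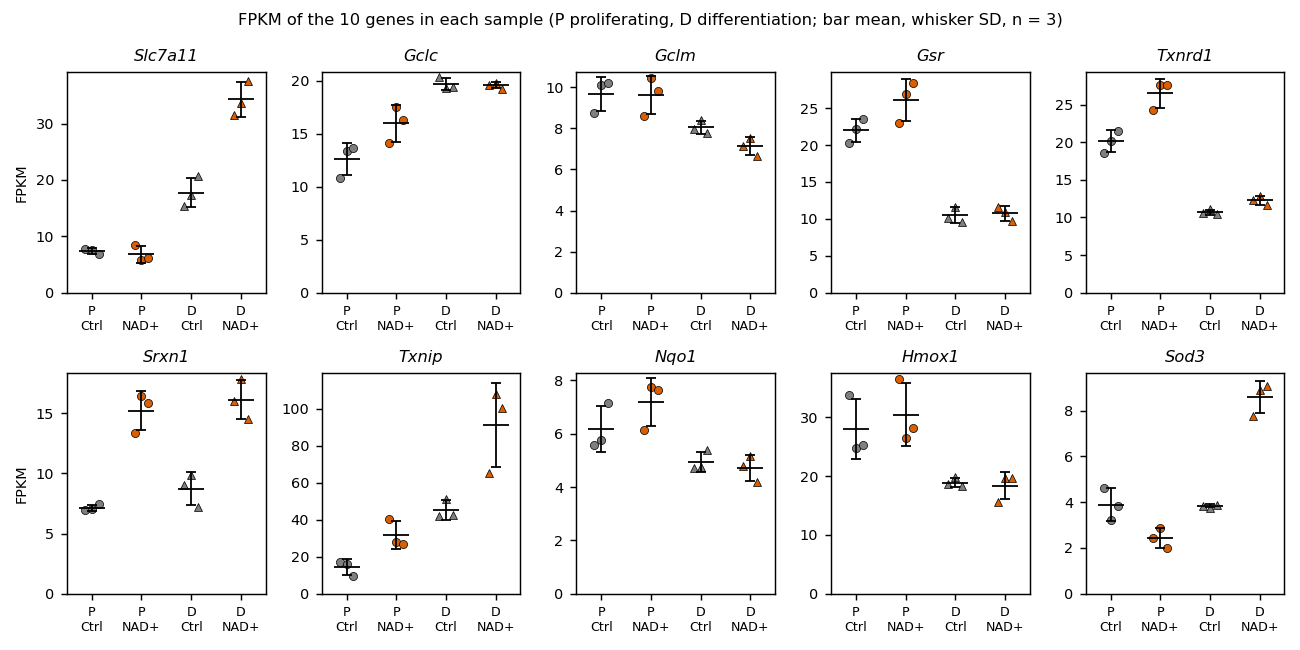
FPKM (vertical axes, from 0) of the 10 genes in each of the 12 samples, by condition (P proliferating, circles; D differentiation, triangles) and treatment (Ctrl grey, NAD+ orange), with the mean as a bar and the SD as whiskers (n = 3). Txnip and Srxn1 were higher with NAD+ in both conditions, and Slc7a11 and Sod3 were higher with NAD+ under differentiation conditions. Gclm, Gsr, Txnrd1, Nqo1 and Hmox1 differed more between conditions than with NAD+. For Gclc this held in Ctrl, but with NAD+ the conditions differed by a log2 difference of 0.30, against 0.34 for NAD+ under proliferating conditions.

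Under proliferating conditions, Srxn1 and Txnip stood about 2-fold higher with NAD+. The classical NRF2 targets were split. Srxn1, Txnrd1 and Gclc were higher without overlap, while Nqo1, Hmox1, Gclm, Gsr and Slc7a11 overlapped between the groups. Srxn1 alone of the 10 genes was called higher and 0 were called lower, where 0.0484% and 0.0968% of all 18597 tested genes were called higher and lower. The 4 members Srxn1, Txnip, Txnrd1 and Gclc were higher in all 3 NAD+ samples than in any Ctrl sample, and Sod3 was lower in all 3. Among all tested genes, 15.5% were higher and 8.59% lower without overlap. Under differentiation conditions, Sod3, Txnip, Slc7a11 and Srxn1 were called higher and 0 members lower, where 2.27% and 4.65% of the 19611 tested genes were called higher and lower. Those 4 and Txnrd1 were higher without overlap and Gclm was lower, against 9.68% and 21.1% of all tested genes. Since the genes were chosen with these contrasts in view, nothing is read from the counts. The median log2 difference was 0.23 over the members and 0.07 over all tested genes under proliferating conditions, and 0.12 and -0.08 under differentiation conditions.

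The glutathione arm begins with Slc7a11, the cystine importer of system xc-, which supplies cysteine for glutathione (ENSMUSG00000027737, chr3:49892526-50443614, minus strand). Under proliferating conditions its FPKM was 7.69, 7.63 and 6.82 in Ctrl and 8.41, 5.75 and 6.19 with NAD+. These groups overlapped, and the log2 difference was -0.14 (SE 0.16). Under differentiation conditions Slc7a11 stood at 15.41, 17.29 and 20.62 in Ctrl and at 31.57, 33.71 and 37.55 with NAD+. Every NAD+ sample was above every Ctrl sample, with a 1.93-fold higher mean and a log2 difference of 0.95 (SE 0.12). It was called in each fit that left out 1 differentiation sample.

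Gclc encodes the catalytic subunit of glutamate-cysteine ligase, the rate-limiting enzyme of glutathione synthesis, and Gclm its modifier subunit. Gclc (ENSMUSG00000032350, chr9:77754535-77794485, plus strand) read 10.86, 13.33 and 13.67 FPKM in proliferating Ctrl and 14.08, 17.54 and 16.29 with NAD+. The groups did not overlap, although the gap between 13.67 and 14.08 was small, and the log2 difference was 0.34 (SE 0.13). Under differentiation conditions all 6 values lay between 19.23 and 20.34, with a log2 difference of -0.01 (SE 0.05). Gclm (ENSMUSG00000028124, chr3:122245557-122270732, plus strand) read 8.74, 10.11 and 10.22 in proliferating Ctrl and 8.60, 10.43 and 9.82 with NAD+, which overlapped. Its differentiation values were 7.96, 8.39 and 7.78 in Ctrl and 7.16, 7.54 and 6.66 with NAD+. The latter were all lower, by a log2 difference of -0.17 (SE 0.07), and the gene was not called. The 2 subunits of 1 enzyme thus had different orders over the groups. Of the exon bases of Gclm, 296 of 6291 are shared with Gm17494 on the opposite strand (mean 3.85 FPKM) and 244 with Gm6061, and since the strand of the counting is not stated their reads cannot be told apart.

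Gsr, glutathione reductase, uses NADPH to restore oxidised glutathione (ENSMUSG00000031584, chr8:33652523-33698163, plus strand). It read 20.32, 22.11 and 23.48 FPKM in proliferating Ctrl and 22.98, 26.97 and 28.39 with NAD+. The lowest NAD+ sample lay below the highest Ctrl sample, and the log2 difference was 0.25 (SE 0.11). With differentiation its values were 10.13, 11.67 and 9.60 in Ctrl and 11.66, 10.91 and 9.66 with NAD+, which overlapped.

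In the thioredoxin arm, Txnrd1 encodes the cytosolic reductase that passes electrons from NADPH to thioredoxin (ENSMUSG00000020250, chr10:82833951-82897712, plus strand). Txnrd1 read 18.63, 20.18 and 21.53 FPKM in proliferating Ctrl and 24.30, 27.64 and 27.61 with NAD+. In the differentiation groups it read 10.57, 11.06 and 10.47 in Ctrl and 12.37, 12.85 and 11.65 with NAD+. NAD+ samples were higher without overlap in both conditions, by log2 differences of 0.40 (SE 0.09) and 0.20 (SE 0.06), and neither difference was called.

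Srxn1 encodes sulfiredoxin, which restores overoxidised peroxiredoxins (ENSMUSG00000032802, chr2:152105516-152111376, plus strand). It read 6.98, 7.0 and 7.43 FPKM in proliferating Ctrl and 13.34, 16.39 and 15.83 with NAD+. The differentiation values were 9.07, 9.87 and 7.23 in Ctrl and 15.99, 17.80 and 14.55 with NAD+. All 6 NAD+ values were above all 6 Ctrl values, with 2.13-fold and 1.85-fold higher means and log2 differences of 1.07 (SE 0.10) and 0.88 (SE 0.13). The call under proliferating conditions was lost without any 1 of the 6 samples, where at most 36 genes were called. Under differentiation conditions it was lost without Ctrl replicate 1, NAD+ replicate 1 or NAD+ replicate 2.

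Txnip (ENSMUSG00000038393, chr3:96557957-96561883, plus strand) had the widest range of the 10 genes, from 9.53 to 108.14 FPKM. Under proliferating conditions it read 17.17, 16.32 and 9.53 in Ctrl and 40.43, 27.95 and 26.64 with NAD+. Under differentiation conditions it read 42.06, 51.28 and 42.55 in Ctrl and 65.13, 108.14 and 100.71 with NAD+. The 4 groups did not overlap and rose in the order proliferating Ctrl, proliferating NAD+, differentiation Ctrl and differentiation NAD+. The means were 2.21-fold and 2.02-fold higher with NAD+, with log2 differences of 1.16 (SE 0.26) and 0.98 (SE 0.20). The spread was wide, the first difference was not called, and the call of the second was lost without any 1 of the Ctrl samples or without NAD+ replicate 2 or 3. Txnip shares 606 of its 3123 exon bases with the antisense gene Gm15441, whose mean was 0.337 FPKM.

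Nqo1, a quinone reductase that uses NADH or NADPH, is among the most used readouts of NRF2 (ENSMUSG00000003849, chr8:107388225-107403206, minus strand). It read 5.56, 5.78 and 7.15 FPKM in proliferating Ctrl and 6.15, 7.76 and 7.65 with NAD+. With differentiation it read 4.73, 4.74 and 5.39 in Ctrl and 4.79, 5.15 and 4.19 with NAD+. Both pairs of groups overlapped, with log2 differences of 0.22 (SE 0.14) and -0.07 (SE 0.10). Hmox1, haem oxygenase 1, degrades haem and is regulated by both NRF2 and the repressor BACH1 (ENSMUSG00000005413, chr8:75093621-75100589, plus strand). It read 33.83, 24.87 and 25.25 in proliferating Ctrl and 36.53, 26.54 and 28.19 with NAD+. Replicate 1 was the highest in both proliferating groups, and the 2 groups overlapped. Its differentiation values were 18.62, 19.78 and 18.24 in Ctrl and 15.67, 19.75 and 19.66 with NAD+, which overlapped too. The log2 differences of Hmox1 were 0.12 (SE 0.17) and -0.05 (SE 0.10).

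Sod3 (ENSMUSG00000072941, chr5:52363791-52371418, plus strand) differed with NAD+ in opposite directions. It read 4.63, 3.20 and 3.81 FPKM in proliferating Ctrl and 2.43, 2.89 and 2.00 with NAD+, so that all NAD+ samples were lower. Under differentiation conditions it read 3.84, 3.76 and 3.89 in Ctrl and 7.77, 8.90 and 9.06 with NAD+, all higher. The log2 differences were -0.65 (SE 0.19, not called) and 1.14 (SE 0.08, called, also in each fit that left out 1 sample). The mean was 2.24-fold higher in the second case.

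**Figure D2:**
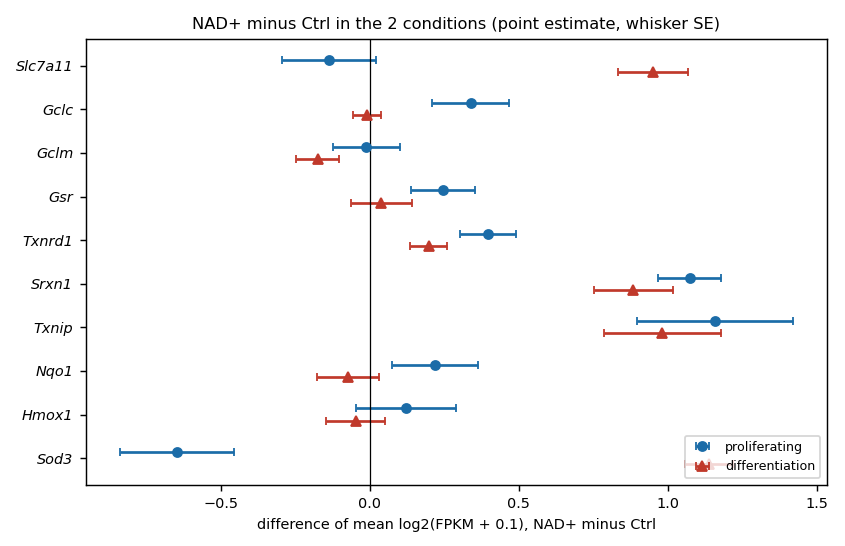
Difference of mean log2(FPKM + 0.1), NAD+ minus Ctrl (horizontal axis), for the 10 genes under proliferating conditions (blue circles) and differentiation conditions (red triangles), with whiskers for the SE. Srxn1 and Txnip lay near 1 in both conditions, whereas Slc7a11 (-0.14 and 0.95) and Sod3 (-0.65 and 1.14) lay apart.

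The NAD+ differences of the 2 conditions were set against each other in a fit of all 12 samples. The log2 difference between them, differentiation minus proliferating, was 1.79 (SE 0.21) for Sod3 and 1.09 (SE 0.21) for Slc7a11. For the other 8 genes it lay between -0.35 for Gclc and -0.16 for Gclm, where the median over all genes was -0.16. Only Sod3 among the members was called in this fit, where 0.467% of 19498 genes were called. Slc7a11 was also called with median-ratio scaling, quantile normalization, 1 added before the logarithm or a minimum mean FPKM of 1. It was called without proliferating NAD+ replicate 1 as well. These values describe the genes as chosen and test nothing.

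The comparison of differentiation with proliferating conditions was tested between the Ctrl groups, which does not use the NAD+ differences. The genes were chosen with earlier results of these data known, so its p-values may not be independent of the choice. The 2 conditions come from separate tables, whose scaling to each other is not stated, so that 2 rescalings are given beside the result. In Ctrl, 3 members were higher and 4 lower in differentiation, where 25.0% of all 19498 tested genes were higher and 31.6% lower. Txnip rose 3.16-fold (log2 difference 1.69, SE 0.25, limma adjusted p = 1.81e-04), Slc7a11 2.41-fold (1.25, SE 0.15, adjusted p = 2.70e-05) and Gclc 1.56-fold (0.64, SE 0.10, adjusted p = 2.19e-04). Gsr fell by a log2 difference of -1.06 (SE 0.11, limma adjusted p = 9.49e-06) and Txnrd1 by -0.90 (SE 0.08, adjusted p = 2.58e-06). All 5 kept their calls under each of 13 alternatives. Hmox1 (-0.55, SE 0.15, limma adjusted p = 0.00825) and Gclm (-0.26, SE 0.09, adjusted p = 0.0326) were lower as well. The call of Hmox1 was lost with quantile normalization and that of Gclm with both rescalings and without proliferating Ctrl replicate 2 or 3 or differentiation Ctrl replicate 1 or 3.

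Srxn1 (log2 difference 0.27, SE 0.12), Nqo1 (-0.30, SE 0.13) and Sod3 (-0.00, SE 0.15) did not pass the test, with limma adjusted p-values of 0.0788, 0.0661 and 0.991. Srxn1 passed with either rescaling and without differentiation Ctrl replicate 3, and Nqo1 without proliferating Ctrl replicate 1. The rescalings shifted the median log2 difference of all genes from -0.06 to 0.05 (median-ratio) or -0.02 (quantile) in Ctrl and from -0.20 to 0.05 or -0.02 with NAD+. They also moved the split of all calls with NAD+ from 4050 higher and 7336 lower to 5589 and 5406 with median-ratio scaling.

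The same comparison in the NAD+ samples had 4 members higher and 5 lower, against 20.8% and 37.6% of all tested genes. It rests on NAD+ values that were in view when the genes were chosen. For the members it is therefore description, without p-values. Slc7a11 rose 5.05-fold (log2 difference 2.34, SE 0.15) and Sod3 3.52-fold (1.78, SE 0.15). Txnip rose by 1.52 on the log2 scale (SE 0.25). Gsr (-1.27), Txnrd1 (-1.10), Hmox1 (-0.72), Nqo1 (-0.60) and Gclm (-0.43) were lower. Hmox1 and Nqo1 lost their calls with quantile normalization and Gclm with both rescalings. Gclc was higher by 0.30 (SE 0.10), a call lost without proliferating NAD+ replicate 1 or differentiation NAD+ replicate 1 or 2. Srxn1 was not called (0.09, SE 0.12), except with the rescalings.

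**Figure D3:**
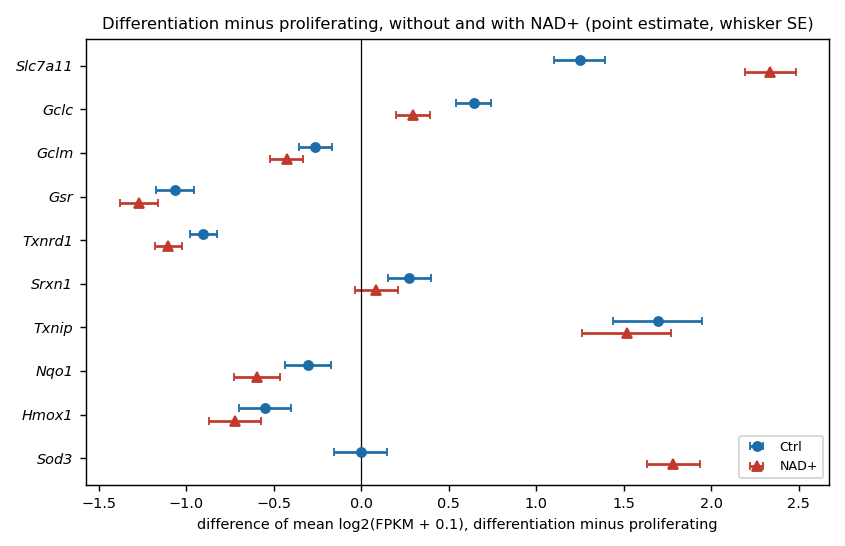
Difference of mean log2(FPKM + 0.1), differentiation minus proliferating conditions (horizontal axis), for the 10 genes in Ctrl (blue circles) and with NAD+ (red triangles), with whiskers for the SE. Slc7a11 and Txnip lay well above 0 and Gsr and Txnrd1 near -1 in both, while Sod3 lay at 0 in Ctrl and at 1.78 with NAD+.

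Genes of the surrounding redox pathways were counted in 9 lists with 135 genes. The lists, too, were chosen with earlier results of these data known. Their counts beside the shares of all genes are thus description, and the p-values of list genes may not be independent of the choice. Under proliferating conditions 0 of 113 tested list genes were called by limma in either direction. Of these, 23 (20.4%) had an unadjusted p-value below 0.05, as did 15.4% of all tested genes. Nfe2l2 itself read 20.96 FPKM in Ctrl and 25.16 with NAD+ (log2 difference 0.26, SE 0.10, limma adjusted p = 0.291), and Keap1 12.59 and 13.26 (0.08, SE 0.11, adjusted p = 0.753). Txn1, thioredoxin itself, read 1190.37, 826.16 and 930.74 FPKM in Ctrl and 639.40, 660.60 and 650.31 with NAD+. The groups did not overlap, but the difference did not pass (-0.58, SE 0.15, limma adjusted p = 0.164).

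Arrdc4 is the closest relative of Txnip and, like it, a glucose-responsive arrestin-domain gene. It read 7.07, 6.27 and 5.52 FPKM in proliferating Ctrl and 19.42, 13.49 and 13.15 with NAD+. With differentiation it read 7.52, 7.79 and 7.16 in Ctrl and 7.12, 9.23 and 6.90 with NAD+. Arrdc4 was thus higher without overlap under proliferating conditions (log2 difference 1.26, SE 0.18), which narrowly missed the threshold (limma adjusted p = 0.0600), and overlapped under differentiation conditions (0.04, SE 0.12, adjusted p = 0.884). The difference between the conditions was -1.22 (SE 0.23, limma adjusted p = 0.0502). The difference under proliferating conditions was called under 1 of 13 alternatives, a minimum mean FPKM of 1, with adjusted p-values from 0.0434 to 0.222 over the 13. The difference between the conditions was called under 5 of 19, with adjusted p-values from 0.0409 to 0.14. Txnip, by comparison, was higher with NAD+ in both conditions.

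Under differentiation conditions, 10 list genes rose and 8 fell with NAD+ of 115 tested (8.70% and 6.96%, against 2.27% and 4.65% of all tested genes), with a median log2 difference of -0.05 against -0.08 over all genes. With median-ratio scaling the list genes split into 14 higher and 3 lower, and all calls moved from 445 higher and 912 lower to 614 and 532. Of 33 further NRF2 targets, 6 rose and 2 fell, although the median log2 difference of the list was -0.23. Abcc4, an efflux transporter, rose from 15.53 to 22.41 FPKM (log2 difference 0.53, SE 0.06, limma adjusted p = 0.00727), and Entpd5 from 30.34 to 42.86 (0.50, SE 0.05, adjusted p = 0.00753). Mgst1, a microsomal glutathione transferase, rose by 0.44 (SE 0.09, limma adjusted p = 0.0429), while the glutathione transferases Gsta4 (-0.62, SE 0.12, adjusted p = 0.0334) and Gstp1 (-0.26) fell. Abcc4 and Entpd5 were called under all 13 alternatives, Mgst1 under 6, Gsta4 under 7 and Gstp1 under 2.

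In the NRF2 switch list, 1 of 14 genes rose and 1 fell. Sqstm1, whose protein p62 sequesters KEAP1, read 71.67, 79.32 and 71.97 FPKM in differentiation Ctrl and 86.86, 104.22 and 105.52 with NAD+ (log2 difference 0.41, SE 0.09, limma adjusted p = 0.0465). Nfe2l3, a related factor of low level, fell from 1.32 to 0.71 (adjusted p = 0.0363 in limma). The call of Sqstm1 was lost under 7 of 13 alternatives and that of Nfe2l3 under 10. Nfe2l2 (0.04, SE 0.06, adjusted p = 0.702) and Keap1 (-0.28, SE 0.08, adjusted p = 0.10) did not pass.

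Slc3a2, the heavy chain that partners Slc7a11 in system xc-, read 99.20, 111.95 and 99.99 FPKM in differentiation Ctrl and 133.63, 123.80 and 137.81 with NAD+. It rose by 0.35 on the log2 scale (SE 0.07, limma adjusted p = 0.0350), and the call was lost under 6 of 13 alternatives. These were the fit without a filter on low values, the replicate block and the fits without replicate 1 or 3 of either group, while the fits without replicate 2 of either group kept it. Slc3a2 was also higher in differentiation than in proliferating Ctrl, by 0.76 (SE 0.07, adjusted p = 5.30e-06), as was Slc7a11. Cbs, of the transsulfuration route to cysteine, fell by 0.23 with NAD+. This call was kept under 3 of 13 alternatives.

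**Figure D4:**
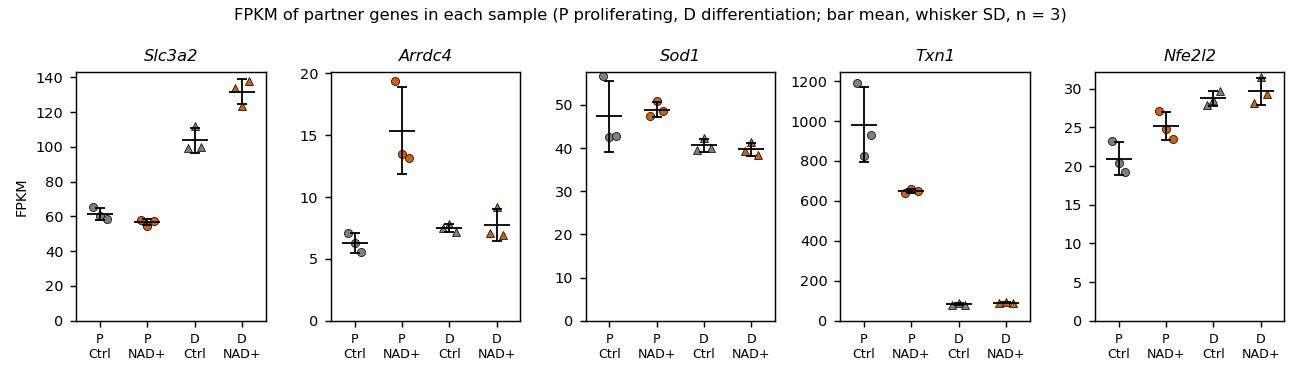
FPKM (vertical axes, from 0) of Slc3a2, Arrdc4, Sod1, Txn1 and Nfe2l2 in each of the 12 samples, with condition, treatment, mean and SD (n = 3) drawn as for the 10 genes. The NAD+ samples of Slc3a2 lay above Ctrl under differentiation conditions, those of Arrdc4 lay above Ctrl under proliferating conditions, and Txn1 lay at 639.40 FPKM or more in all 6 proliferating samples and at 94.82 or less in the others.

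Gpx1 and Gpx3, a cytosolic and a secreted glutathione peroxidase, were the 2 of 9 peroxidase and glutaredoxin genes called. Gpx3 read 5.90, 6.60 and 5.36 FPKM in differentiation Ctrl and 10.53, 11.75 and 14.69 with NAD+ (log2 difference 1.03, SE 0.14, limma adjusted p = 0.0130). Gpx1 read 32.36, 30.49 and 25.68 in Ctrl and 50.66, 48.09 and 46.76 with NAD+ (0.72, SE 0.09, adjusted p = 0.0110). Both rose without overlap. Gpx1 was called under all 13 alternatives and Gpx3 under all but those without Ctrl replicate 1 or 3.

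All 4 called genes among 16 tested for NADPH supply fell under differentiation conditions, and 3 belong to folate-linked 1-carbon metabolism. These were Mthfd2 (log2 difference -0.75, SE 0.15, limma adjusted p = 0.0385), Aldh1l1 (-0.61, SE 0.05, adjusted p = 0.00494) and Mthfd1 (-0.41). The other, Idh1, encodes the cytosolic isocitrate dehydrogenase (-0.49). Aldh1l1 read 93.05, 96.57 and 90.97 FPKM in Ctrl and 63.27, 63.07 and 57.69 with NAD+, and its call held under all 13 alternatives. The call of Mthfd2 held under 4 alternatives, and both rescalings ended it. The lists of 18 thioredoxin and peroxiredoxin genes, 4 superoxide dismutase and catalase genes, 7 TXNIP relatives and 3 tested NADPH oxidase genes had 0 calls in limma, with 6, 1, 1 and 0 genes at an unadjusted p-value below 0.05. Sod1, the cytosolic relative of Sod3, ranged from 38.32 to 42.36 FPKM over the 6 differentiation samples.

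Between conditions in Ctrl, 29 of 115 tested list genes (25.2%) were higher and 45 (39.1%) lower in differentiation, against 25.0% and 31.6% of all tested genes. The further NRF2 targets had 11 higher and 11 lower of 33. Thioredoxin and peroxiredoxin genes had 3 higher and 12 lower of 18, with a median log2 difference of -0.68 against -0.06 over all genes. Txn1 fell from a mean of 982 to 83.3 FPKM (log2 difference -3.54, SE 0.12, limma adjusted p = 3.48e-09), Msra by -2.16 and Msrb1 by -1.33, while Prdx6 rose by 1.24. Txnrd3, another thioredoxin reductase gene, rose from 3.55 to 4.72 FPKM (log2 difference 0.40, SE 0.13, limma adjusted p = 0.0231), unlike Txnrd1, and lost its call without proliferating Ctrl replicate 1 or differentiation Ctrl replicate 1. NADPH supply had 1 gene higher and 9 lower of 16, led by Mthfd1l (-2.54) and Mthfd2 (-1.59). The NRF2 switch list had 5 genes higher and 4 lower of 14 (35.7% and 28.6%). Nfe2l2 rose by 0.46 (SE 0.08, limma adjusted p = 7.29e-04). Of the small MAF partner genes, Mafg (1.05) and Mafk rose, whereas Maff fell. Cul3 (-0.79) and Rbx1 (-0.93), both of the ubiquitin ligase that removes NRF2, fell as well. With quantile normalization the counts over all lists were 37 higher and 35 lower. With NAD+, 31 list genes (27.0%) were higher and 52 (45.2%) lower in differentiation, against 20.8% and 37.6% of all tested genes, or 38 and 39 with median-ratio scaling. In the fit of the difference of the NAD+ effect, 0 of 115 list genes were called by limma, and 21 (18.3%) had an unadjusted p-value below 0.05, as did 15.5% of all tested genes.

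**Figure D5:**
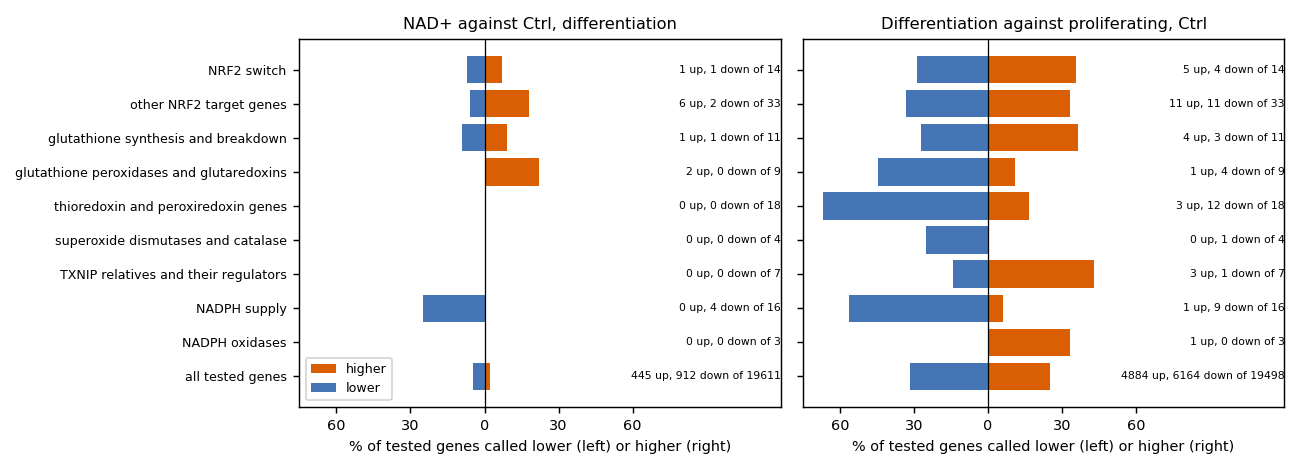
Share of tested genes in each redox list called lower (blue, left of 0) or higher (orange, right of 0), in percent, for NAD+ against Ctrl under differentiation conditions and for differentiation against proliferating conditions in Ctrl, with the counts at the right. All tested genes are the lowest bar, and thioredoxin and peroxiredoxin genes show 12 of 18 lower in the comparison of conditions and 0 calls with NAD+.

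Genes with the most similar profiles were sought among the 12928 genes with a mean of at least 1 FPKM, by the root mean square difference of log2(FPKM + 0.1) over the 12 samples after centring each gene. For Slc7a11 they were Gpld1 (0.160), Ctsb (0.196) and Sertad4, on a log2 range of 2.69 for Slc7a11 itself. For Srxn1 they were Kitl (0.221), Shc1 (0.255) and Cpd, and for Sod3 Cited1 (0.193), Tmem255a and Rcn2. Txnip had Rdh5 (0.287), Ecm1 and Col6a1 as its nearest genes, on a range of 3.49. Nab1 was among the 3 nearest genes of both Txnrd1 (0.0705) and Gsr (0.0984). Gclc lay nearest to Tmem201 (0.0715), Gclm to Fbxw8 (0.0561), Nqo1 to Mfap1b (0.0817) and Hmox1 to Lamtor4 (0.107). No member was among the 3 nearest genes of another member. With only 3 of 12928 genes taken for each member, this does not show whether members vary together.

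Markers of other cell types were summed as FPKM over 6 genes each. Under differentiation conditions the astrocyte sum was 1225 to 1335 in Ctrl and 1509 to 1629 with NAD+, in the same samples in which Slc7a11 and Sod3 were higher. Of its genes, Gfap (log2 difference 0.72, SE 0.07, limma adjusted p = 0.00613) and Slc1a2 rose and Aldoc fell. Gfap carried the higher sum, with a mean of 595 FPKM in Ctrl and 977 with NAD+. Sums without 1 gene were added after the values had been seen, and without Gfap the astrocyte sum turned to 627 to 749 in Ctrl and 542 to 630 with NAD+. The oligodendrocyte lineage sum was 217 to 231 in Ctrl and 151 to 156 with NAD+. Under proliferating conditions both sums were lower with NAD+ without overlap, at 770 to 829 and 605 to 699 for astrocytes and at 326 to 374 and 282 to 318 for the oligodendrocyte lineage.

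The sum of progenitor markers was 2428 to 2668 in proliferating Ctrl, 1410 to 1924 with NAD+, 632 to 681 in differentiation Ctrl and 526 to 616 with NAD+. Most of it was Fabp7, with means of 2107, 1317, 449 and 369 FPKM. Without Fabp7 the sum was 396 to 435 in proliferating Ctrl and 379 to 418 with NAD+, which overlapped, and 212 to 218 and 202 to 213 in the differentiation groups. Like Gsr, Txnrd1 and Hmox1, it was lower under differentiation conditions with and without Fabp7, although the means of Sox9 (39.5 and 38.1 FPKM) and Pax6 (3.02 and 3.20) were close in both Ctrl groups. With NAD+ under proliferating conditions Nes (68.8 and 82.0) and Sox2 (225 and 216) overlapped with Ctrl.

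Sums of microglia and macrophage markers were at most 7.04, with 4 or 5 of the 6 markers under a mean of 0.1 in every group and at most 0.31 without Cd68. Cd68, which encodes a lysosomal protein, was itself higher with NAD+ without overlap in both conditions, at means of 0.98 and 4.26 FPKM under proliferating conditions (limma adjusted p = 0.103, not called) and 1.59 and 3.57 under differentiation conditions (adjusted p = 0.0126). Sums of endothelial and of pericyte and fibroblast markers were at most 1.60, and erythroid sums at most 1.39. The neuron sum was 21.91 to 32.59 in proliferating Ctrl and 28.55 to 31.17 with NAD+. In the differentiation groups the neuron sum was 29.89 to 35.27 and 30.55 to 31.00, and all 4 groups overlapped. The ependymal sum was 11.42 to 12.98 in proliferating Ctrl and 11.48 to 12.83 with NAD+. Under differentiation conditions the ependymal sum was 32.39 to 34.43 in Ctrl and 32.43 to 35.53 with NAD+. The part of these shifts in the results was not tested.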

How the data were processed

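RNA-seq libraries of 12 aNSPC samples (4 groups of 3) were sequenced by the authors, mapped to mm10 with Hisat2 and counted with FeatureCounts from uniquely mapped reads. The authors deposited FPKM values in a table per condition. The program that computed FPKM and the scaling between the tables are not given in the sources used here. The tables also hold the authors' fold change, its log2, p-values, q-values and marks of regulation, which were not used. No per-sample column was left out (0). The FPKM values of a sample summed to 308828 to 363330, which does not measure depth.

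The deposited FPKM values were not rescaled and were analysed as log2(FPKM + 0.1). All genes averaging at least 0.1 FPKM were fitted with limma 3.58.1 (R 4.3.3) with a trend on expression, two-sided, and adjusted by Benjamini-Hochberg over all tested genes. NAD+ was tested within each condition (6 samples), and the other contrasts came from a fit of 12 samples. A fold is the ratio of mean FPKM values.

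Members and pathway lists were chosen with earlier results of these data known. All members were named. A list gene was named when called, if its list had up to 6 calls in that comparison, and otherwise if among the 3 largest rises or falls with a mean of at least 1 FPKM. Nfe2l2, Keap1, Bach1, Sod1, Sod2, Cat, Txn1 and Arrdc4 could always be named. The Nnt symbol of the lists has 2 gene IDs. Alternatives were 1 or 0.01 added, no filter, a mean of at least 1 FPKM, median-ratio scaling, quantile normalization, the replicate number as a block, and each sample left out. The code was tested on simulated data. Figures were drawn with Python 3.11.15 and matplotlib 3.10.9.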

Additional observations from a re-analysis of the deposited data

Results flagged for a closer look

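Sod3 stood out because its NAD+ difference was not the same in the 2 conditions. The log2 difference between the conditions was 1.79 (SE 0.21, limma fit of all 12 samples), from -0.65 under proliferating conditions and 1.14 under differentiation conditions. All 3 NAD+ samples were below all Ctrl samples in the first case and above them in the second. The difference was called under all 19 alternatives, in fits that left out 1 sample too. As the gene was chosen with the NAD+ values known, this is a description.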

How the results depend on the processing

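Under proliferating conditions 27 genes were called, 9 without a filter, 75 with a mean of at least 1 FPKM, 60 with quantile normalization, 33 with median-ratio scaling (7 higher, 26 lower) and 0 to 36 without 1 sample. Of the redox lists, 0 genes were called there, 1 with a mean of at least 1 FPKM and 2 with quantile normalization. Under differentiation conditions 1357 genes were called, 328 to 719 without 1 sample, and the list calls went from 18 to 9 without a filter and to 5 to 11 without 1 sample. The difference of the NAD+ effect had 91 calls, 139 with 1 added and 12 to 195 without 1 sample. Its list calls went from 0 to 1 with 1 added, with a mean of at least 1 FPKM or with quantile normalization, and to 0 to 3 without 1 sample. Its split of 43 higher and 48 lower became 69 and 24 with median-ratio scaling.

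Without a filter, Srxn1 under proliferating and Txnip under differentiation conditions lost their calls. Some differences near 0 changed sign. Sod3 between conditions in Ctrl was 0.12 with median-ratio scaling, 0.0921 with quantile normalization and from -0.13 to 0.13 without 1 sample. Without 1 sample, the NAD+ difference ranged from -0.0175 to 0.16 for Keap1 under proliferating conditions, and from -0.00155 to 0.0810 for Nfe2l2 and -0.0936 to 0.11 for Arrdc4 under differentiation conditions. Srxn1 between conditions with NAD+ ranged from -0.00433 to 0.16 without 1 sample. Sod1 between conditions with NAD+ was called lower (-0.30) as deposited and higher (0.20) with quantile normalization. The cause was not tested.

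Samples with the same replicate number deviated together only weakly (correlations of 0.0215 to 0.111). Between different numbers the mean correlation was -0.0303 under proliferating and -0.0183 under differentiation conditions. Correlations this weak cannot exclude a batch or pairing behind the numbers. With the replicate block, 0, 758 and 26 genes were called under proliferating conditions, under differentiation conditions and for the difference, and of the member calls only that of Srxn1 under proliferating conditions was lost. Depth is unknown, so counting error cannot be given, and 3 samples a group limit what could be called.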
